A study of Homo sapiens with 17 samples.

Results

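The genes described here are 39 subunits and ATPases of chromatin remodelers, of 19141 genes in the count table: 28 genes of the SWI/SNF (BAF) complexes, 2 ISWI ATPases (SMARCA1 and SMARCA5), INO80, and 8 CHD proteins (CHD1 to CHD4 and CHD6 to CHD9). They were listed by name, with no expression value in the rule, and each was found once in the table through its gene identifier. The study refers to BRG1, the protein of SMARCA4, by citing earlier work on its phosphorylation, which RNA levels do not measure. RNA-seq was run on YB5 cells, a derivative of the SW48 human colon cancer line with a single inserted GFP gene under a CMV promoter that is silent in nearly all cells. Cells received 250 nM toyocamycin, an adenosine analog, or DMSO as the vehicle, and poly(A) RNA was collected after 2, 10, 24 or 48 h or at a last time point, which the sample labels give as 72 h and the study's text as 96 h. The 17 libraries comprised 2 per arm at 2 h, 2 of toyocamycin and 1 of DMSO at 10 h, 1 per arm at 24 and 48 h each, and 3 per arm at the last time point.

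Remodelers use ATP to slide, eject or exchange nucleosomes. BAF complexes carry either SMARCA4 (BRG1) or SMARCA2 (BRM) as the motor. Core below names a class of 16 listed genes, with no claim that every form holds all of them. ARID1A, ARID1B and the DPF proteins mark canonical BAF, ARID2, PBRM1, BRD7 and PHF10 mark PBAF, and BRD9 with BICRA or BICRAL marks non-canonical BAF. Genes of BAF subunits are often mutated in human cancers. ISWI enzymes space nucleosomes, INO80 moves nucleosomes and acts on the variant H2A.Z, and CHD proteins share paired chromodomains, with CHD3 and CHD4 as the motors of the NuRD complex.

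Total counts per library ran from 8735465 (replicate 2 of toyocamycin at 10 h) to 22121364. Together the 39 genes took 0.352 to 0.401% of the counts in the 8 DMSO libraries. On toyocamycin their share was 0.331 to 0.345% after 2 h and 0.225 to 0.237% after 10 h. It stood at 0.179% in the library of 24 h, at 0.190% in that of 48 h and at 0.171 to 0.187% by the last time point. The share does not depend on any scaling between libraries, but a lower share does not tell less RNA of these genes per cell from more RNA of others, and in bulk samples fewer cells of a type and less RNA per cell cannot be told apart. Below, a level is in CPM (counts scaled to a common library total, after TMM), and a difference is a log2 fold change of toyocamycin over DMSO with its standard error. A call means that edgeR's quasi-likelihood test gave a p under 0.1 after Benjamini-Hochberg adjustment over all genes tested. At 24 and 48 h, with 1 library per arm, no test was made and genes past a 2-fold difference were counted.

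The labelled colorectal origin was checked with 8 colon epithelium markers, of which EPCAM, CDH1, KRT8, KRT18 and CDX2 were abundant in DMSO while VIL1, CDH17 and GPA33 were near 0. At the last time point the 8 markers summed to 5810 to 6680 CPM in DMSO and 531 to 569 CPM on toyocamycin. KRT8 and KRT18 made up most of that sum and were lower on toyocamycin. Also lower were CDH1 (mean 382 CPM in DMSO and 33.7 CPM on toyocamycin), EPCAM (272 and 103 CPM), VIL1 (2.07 and 0.276 CPM) and GPA33 (0.369 and 0.214 CPM). The other 2 markers were higher: CDX2 averaged 69.6 CPM in DMSO and 104 CPM on toyocamycin, and CDH17 1.03 and 7.72 CPM. Of the leukocyte markers, CD14 averaged 0.0925 CPM in DMSO and 15.6 CPM on toyocamycin, LYZ 0.0596 and 0.695 CPM, and PTPRC 0.0826 and 0.239 CPM, with CD3E at 0 in DMSO. The 5 fibroblast markers summed to 0.464 to 1.14 CPM in DMSO, with COL3A1 at 0, and to 2.26 to 21.5 CPM on toyocamycin. In DMSO at 2 h they summed to 4.63 to 12.4 CPM, within that range. COL1A1 alone ran from 0.491 to 12.3 CPM over the toyocamycin libraries of the last time point. The 4 endothelium markers summed to 0.258 to 0.446 CPM in DMSO, with PECAM1, CDH5 and KDR at 0, and to 2.06 to 3.91 CPM on toyocamycin. The part of these marker differences in the results at the last time point was not tested.

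The promoters of 4 genes that stand for the patterns below are shown first: SMARCA4, the motor that was lower late, CHD1 and CHD8, which were lower early, and CHD2, which was higher late. Each window runs from 250 bases before to 50 bases after a RefSeq transcription start (assembly GRCh38.p14, the first start listed for the gene), 5′ to 3′ on the gene's strand. Capitals mark the GC box GGGCGG and the CCAAT box CCAAT on either strand, with overlapping matches counted separately.
SMARCA4, chr19:10960780-10961079, plus strand: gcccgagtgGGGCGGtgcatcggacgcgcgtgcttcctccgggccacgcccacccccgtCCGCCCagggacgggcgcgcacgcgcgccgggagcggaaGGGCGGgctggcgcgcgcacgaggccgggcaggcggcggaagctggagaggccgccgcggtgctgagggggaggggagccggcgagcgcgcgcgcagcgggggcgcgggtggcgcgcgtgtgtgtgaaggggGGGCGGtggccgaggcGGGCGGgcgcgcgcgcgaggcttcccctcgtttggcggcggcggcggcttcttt
CHD1, chr5:98928958-98929257, minus strand: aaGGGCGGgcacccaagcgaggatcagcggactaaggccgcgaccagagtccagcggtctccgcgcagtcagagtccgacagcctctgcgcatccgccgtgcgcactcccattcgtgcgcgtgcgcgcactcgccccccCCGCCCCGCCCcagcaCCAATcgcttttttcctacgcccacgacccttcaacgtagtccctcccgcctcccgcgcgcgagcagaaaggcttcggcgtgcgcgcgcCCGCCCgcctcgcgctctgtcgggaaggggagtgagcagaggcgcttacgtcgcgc
CHD2, chr15:92900074-92900373, plus strand: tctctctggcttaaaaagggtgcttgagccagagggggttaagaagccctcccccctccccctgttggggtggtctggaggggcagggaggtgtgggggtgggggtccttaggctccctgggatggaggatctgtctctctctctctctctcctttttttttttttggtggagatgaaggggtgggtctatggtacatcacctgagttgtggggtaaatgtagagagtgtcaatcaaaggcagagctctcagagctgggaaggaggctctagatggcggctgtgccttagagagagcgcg
CHD8, chr14:21437226-21437525, minus strand: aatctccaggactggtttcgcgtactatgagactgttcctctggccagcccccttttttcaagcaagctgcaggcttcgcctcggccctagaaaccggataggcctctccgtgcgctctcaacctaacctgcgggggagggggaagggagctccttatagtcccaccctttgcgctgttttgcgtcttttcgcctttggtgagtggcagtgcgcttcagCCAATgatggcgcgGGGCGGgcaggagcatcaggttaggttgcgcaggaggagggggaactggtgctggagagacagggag

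The SMARCA4 window held 5 GC box matches and 81.3% G and C, and the CHD1 window 4 GC boxes, 1 CCAAT box and 70.7%. The CHD8 window held 1 of each and 59.7%, and the CHD2 window none of the motifs searched and 56.0%. Both of these windows lie inside the annotated gene, whose 5′ end is at 21456126 for CHD8 and 92886203 for CHD2. They therefore show an internal start, and other starts of these genes are not printed. The reference table gave promoters for 33 of the 39 genes, in 53 windows, since several genes have more than 1 start. Of these windows 71.7% held GGGCGG, against 45.0% of all 35116 windows in the table, which include noncoding genes. The other letters were searched on both strands too. CCAAT was in 30.2% of the windows of these genes (34.6% of all), TATAAA in 5.66% (11.5%), CACGTG in 5.66% (7.26%), CCGGAAG in 7.55% (10.3%), AAGATGG in 7.55% (5.84%), TGACGTCA in 0.0% (1.85%) and GCGCATGC in 0.0% (3.05%). The 6 genes without a window were ACTL6A, SMARCC1, SMARCC2 and the early fallers ARID2, CHD6 and CHD7, which the next values therefore leave out. The GC box was in 6 of the 9 windows of genes that fell at 2 h and in 31 of the 43 of genes not called then. Median G and C content was 67.7% in the windows of early fallers and 68.0% in the others, against 58.7% over all windows.

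In DMSO cells, levels per kb of the MANE Select transcript ordered the genes from SMARCD2 (median over 8 libraries 116 CPM per kb, range 86.8 to 128) and SMARCA4 (76.3, range 62.0 to 101) down to DPF3 (0.128), SMARCA1 (0.0209) and ACTL6B (0.0152). The ranges of SMARCD2 and SMARCA4 overlapped. BCL7B, DPF2 and SMARCC1 followed at 52.0, 48.4 and 45.1 CPM per kb, with overlapping ranges. SMARCA2 stood at 14.1 (12.4 to 21.3), below every SMARCA4 library. Of the CHD genes, CHD8 had a median of 11.2 CPM per kb (range 10.0 to 16.0) and CHD9 one of 1.17. The counts of CHD4 (2.33) and SMARCE1 (0.898) are uncertain: 46.9% and 18.9% of their exon bases lie under another gene of the same strand in the annotation used here, and STAR leaves reads that overlap more than 1 gene out of its gene counts. The part of this overlap in their levels was not tested. PBRM1 had no such transcript length in the annotation used, and so no value per kb.

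**Figure D1:**
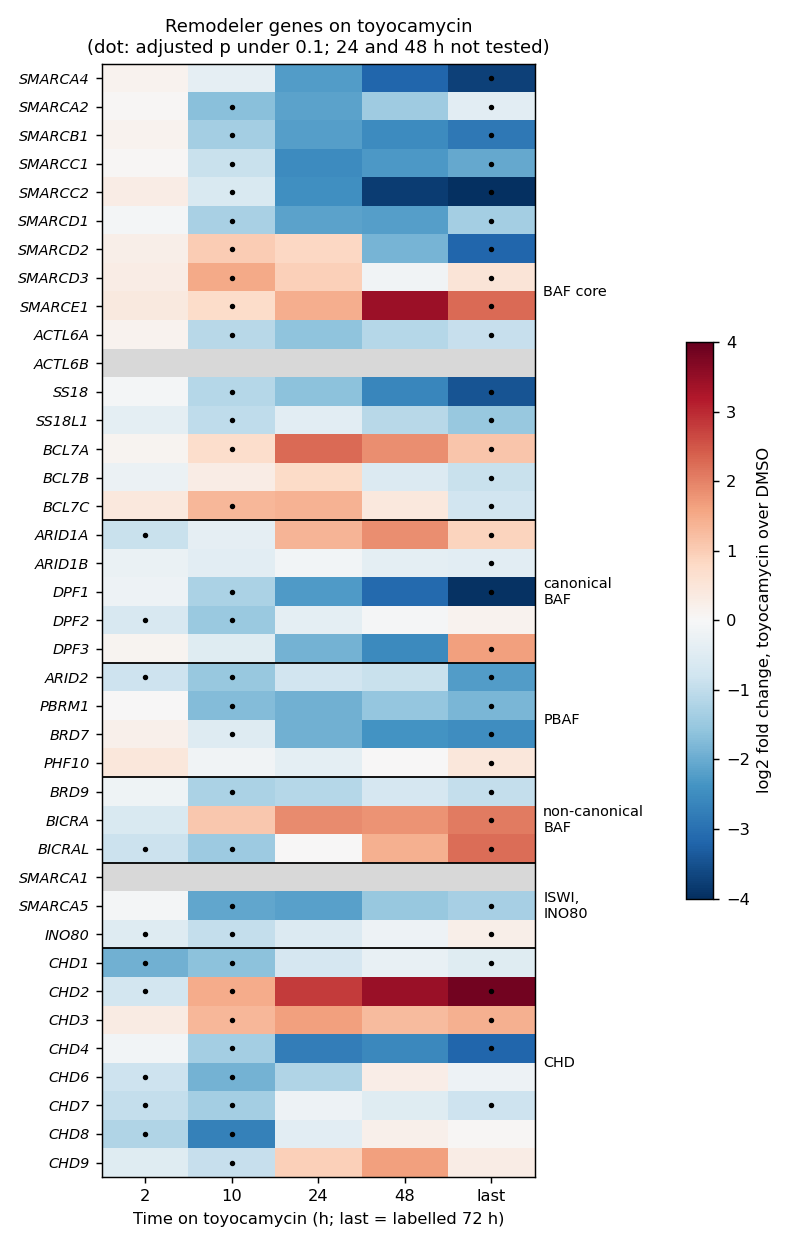
Log2 fold change of toyocamycin over DMSO (colour, from -4 in blue to 4 in red) for the genes in rows, by complex, at 2, 10, 24 and 48 h and the last time point in columns. Dots mark an adjusted p under 0.1, 24 and 48 h were not tested, and ACTL6B and SMARCA1 are grey for few counts. Of the 8 CHD genes 5 fell at 2 h, and SMARCC2 (-4.31) and SMARCA4 (-3.74) were among the lowest at the last time point, opposite to CHD2 (3.84).

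At 2 h, 5 of 8 CHD genes were lower on toyocamycin. So were some complex-defining BAF subunits: 2 of 5 of canonical BAF, 1 of 4 of PBAF and 1 of 3 of non-canonical BAF. No core subunit passed the test without the replicate block described below. Of the 38 genes tested 10 fell, where 8.42% of all genes tested did, and 0 rose, where 0.518% of all did. Among all 38, 1 higher gene had an unadjusted p under 0.05, and DESeq2's Wald test called 1 higher. The falls comprised 5 of 8 CHD genes (CHD1, CHD2, CHD6, CHD7 and CHD8), ARID1A and DPF2 of canonical BAF, ARID2 of PBAF, BICRAL of non-canonical BAF, and INO80. Of the 15 core subunits tested, 0 fell in this fit (1 fell and 3 rose with the block). The share of 8.42% over all genes also leaves few falls in a set of 15. The median difference of the core subunits was 0.131, against -0.771 for the CHD genes and 0.0222 for all genes tested. Medians were -0.276 for canonical BAF, 0.103 for PBAF and -0.617 for non-canonical BAF.

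CHD1, which binds trimethylated H3K4 behind active promoters, was 42.9 and 57.1 CPM in DMSO at 2 h and 15.2 and 11.3 CPM on toyocamycin. The arms did not overlap, and the log2 fold change was -1.91 ± 0.21 (SE, adjusted p = 4.58e-05). CHD8, which binds beta-catenin and is frequently mutated in autism, was 93.9 and 99.7 CPM in DMSO and 42.0 and 42.6 CPM on toyocamycin, a change of -1.19 ± 0.14 (adjusted p = 6.59e-05). CHD7, the gene of CHARGE syndrome, was 49.6 and 53.6 CPM against 28.0 and 24.9 CPM (-0.96 ± 0.15, adjusted p = 0.000797). All 3 genes were lower in both toyocamycin libraries than in either DMSO library.

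CHD6 fell by 0.81 on the log2 scale (SE 0.16, adjusted p = 0.00365) and CHD2 by 0.73 (SE 0.16, adjusted p = 0.00852). CHD2 stood at 69.0 and 63.6 CPM in DMSO and at 40.6 and 39.5 CPM on toyocamycin. ARID1A, the DNA-binding subunit of canonical BAF that is often mutated in cancer, fell from 74.6 and 59.3 CPM to 42.0 and 30.8 CPM (-0.88 ± 0.21, adjusted p = 0.0158). ARID2, its counterpart in PBAF, went from 25.0 and 32.4 CPM to 17.6 and 14.9 CPM (-0.82 ± 0.19, adjusted p = 0.0148), and BICRAL from 15.2 and 23.8 CPM to 10.1 and 11.2 CPM (-0.87 ± 0.21, adjusted p = 0.0185). DPF2, a reader of acylated histone H3, fell by 0.65 (SE 0.15, adjusted p = 0.0133), and INO80 by 0.51 (SE 0.15, adjusted p = 0.0544).

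At 2 h the replicate number coincided with the batch given in the labels, and each batch held 1 library per arm. All 10 genes were lower in either batch. The log2 ratio of CHD1 was -1.49 in batch 1 and -2.33 in batch 2, that of CHD8 -1.16 and -1.23, and that of ARID2 -0.509 and -1.12. With the replicate as a block, 14 genes fell, where 18.7% of the 11848 genes in that fit did, and 5 rose, where 8.72% did. That fit used the 2 h libraries alone, so it differs from the reported one in its spread and genes kept as well as in the block. Those added were the core subunit SS18L1 (-0.414, adjusted p = 0.0391), ARID1B (-0.308, 0.0257), BICRA (-0.638, 0.000172) and CHD9 (-0.476, 0.0359) below DMSO. PHF10 (0.440, 0.00154), BCL7C (0.427, 0.00598), CHD3 (0.325, 0.0366), SMARCC2 (0.298, 0.0303) and SMARCD3 (0.271, 0.0643) were added above it, of which BCL7C, SMARCC2 and SMARCD3 are core subunits. Without replicate 2 of toyocamycin 6 of the 10 falls were called, and with libraries scaled on the mitochondrially encoded genes only CHD1 was.

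The median span of the 10 early fallers was 113 kb and their median transcript length 8.53 kb, with DPF2 the shortest at 20.4 kb in span. The medians were 44.1 kb and 5.09 kb for the 28 genes not called, and 31.4 kb and 3.26 kb for all genes tested. Across the 37 genes with a transcript length, Spearman's rho between length and the log2 fold change at 2 h was -0.557, and across all genes tested -0.228. For the gene's span it was -0.41 across 38 genes and -0.0866 across all. These are descriptions across genes, which are not independent and share libraries.

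**Figure D2:**
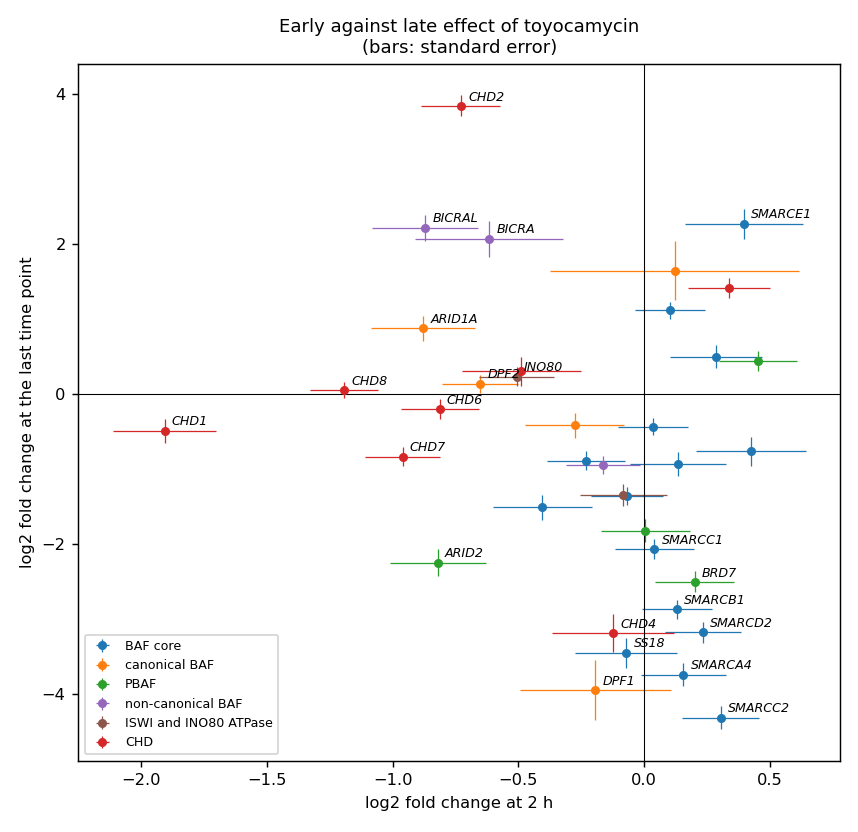
Log2 fold change at 2 h (horizontal axis) against that at the last time point (vertical axis) for 37 genes, with standard errors as bars and colours by complex. CHD2 and BICRAL lie to the left of 0 and above it, while SMARCC2 and SMARCA4 lie near 0 at 2 h and at -4.31 and -3.74 at the last time point.

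At 10 h most of these genes were lower on toyocamycin, with only 1 DMSO library to compare with. Of the 39 genes tested 23 fell, where 24.4% of all genes tested did, and 8 rose, where 20.4% of all did. Their median log2 fold change was -0.926, against 0.417 for all genes. The value for all genes rested largely on 1 library and on the count filter. Without replicate 2 of toyocamycin the medians were -1.09 and 0. With at least 10 counts in every library they were -0.821 and -0.0789. The shares of all genes depend on that filter too. CHD8 was 135 CPM in the DMSO library and 19.7 and 21.6 CPM on toyocamycin (-2.71 ± 0.19, adjusted p = 4.1e-07), and SMARCA5, the ISWI motor also called SNF2H, was 135 CPM against 29.9 and 34.0 CPM (-2.08 ± 0.23, adjusted p = 7.55e-06). SMARCA2 was at 123 CPM against 29.3 and 47.9 CPM (-1.67 ± 0.24, adjusted p = 6.95e-05), and CHD6, PBRM1, CHD1, ARID2, DPF2 and BICRAL were between -1.88 and -1.44.

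Genes that rose at 10 h included SMARCD2 (240 CPM in DMSO, 465 and 502 CPM on toyocamycin, 1.01 ± 0.23, adjusted p = 0.00314) and SMARCD3 (52.4 CPM against 170 and 131 CPM, 1.53 ± 0.28, adjusted p = 0.000526), which are alternative subunits of the BAF core. CHD2 was 57.5 CPM in DMSO and 196 and 124 CPM on toyocamycin (1.48 ± 0.28, adjusted p = 0.000794), the reverse of its direction at 2 h. CHD3 rose by 1.32 (SE 0.23), BCL7C by 1.33 (SE 0.34), SMARCE1 by 0.74 (SE 0.29) and BCL7A by 0.70 (SE 0.27). SMARCA1 counts were 0 in the DMSO library and 4 and 9 on toyocamycin, so no fold is given for it. SMARCA4 was 353 CPM against 298 and 253 CPM, which did not pass the test (-0.36 ± 0.24, adjusted p = 0.228).

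The 2 toyocamycin libraries of 10 h differed for several genes, as BICRA (50.3 and 16.0 CPM), BCL7B (105 and 42.9 CPM) and ARID1A (64.2 and 26.6 CPM) show, and none of these was called. All 23 genes that fell were also lower within batch 2, which held the DMSO library and 1 toyocamycin library, and the 7 risers with counts in both were higher there. That toyocamycin library, replicate 2, had the fewest counts of all and 6.55% mitochondrially encoded counts, against 3.30% in replicate 1. The endothelium markers also differed between replicates 1 and 2: PECAM1 (0 and 2.54 CPM), CDH5 (0 and 2.65), VWF (0.642 and 7.07) and KDR (0 and 2.43). With mitochondrial scaling 0 of the 8 rises was called, and SMARCD2, SMARCE1 and BCL7A turned below DMSO.

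The libraries of 24 and 48 h gave values with no replicate and no test. Past a 2-fold difference were 7 genes higher and 16 lower at 24 h, where all genes tested gave 29.7% higher and 27.8% lower, and 9 higher and 16 lower at 48 h, where all genes gave 38.1% and 29.9%. SMARCA4 was at 348 and 73.9 CPM in DMSO and toyocamycin at 24 h, and at 455 and 49.7 CPM at 48 h. SMARCC1, which the test called lower by 0.90 (SE 0.23) at 10 h, was at 241 against 41.6 CPM at 24 h. SMARCD2 was still above DMSO at 24 h (214 against 378 CPM) and below it at 48 h (305 against 83.1 CPM). CHD9 was above DMSO at 48 h, at 13.1 against 39.9 CPM. Scaled on the mitochondrially encoded genes, log2 fold changes were -1.44 for SMARCD2 at 24 h and -0.22 for CHD9 at 48 h.

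By the last time point 22 of the 38 tested genes were lower on toyocamycin and 12 higher, where 41.9% of all genes tested were lower and 47.0% higher. The 4 genes not called were DPF2, CHD6, CHD8 and CHD9. The median log2 fold change of the 38 genes was -0.623, against 0.177 for all genes. This comparison depends on the count filter. With at least 10 counts in every library the medians were -0.478 for the listed genes and -0.118 for all genes. Of the 10209 genes in that fit 4723 were lower and 4270 higher. For 23 genes every toyocamycin library lay below every DMSO library (41.8% of all genes tested), for 12 above (45.8%), and only CHD8, DPF2 and CHD9 overlapped. Core subunits were lower in 12 of 15 cases, PBAF subunits in 3 of 4, and CHD genes in 3 of 8, with medians of -1.36, -2.03 and -0.0706.

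Among the motors, SMARCA4 was 561, 541 and 446 CPM in DMSO and 33.8, 39.2 and 40.3 CPM on toyocamycin, or 0.0749 of the DMSO level (-3.74 ± 0.16, adjusted p = 7.31e-12). SMARCA2 was 77.6, 76.7 and 79.9 CPM in DMSO and 58.7, 54.8 and 56.7 CPM on toyocamycin, or 0.743 of the DMSO level (-0.43 ± 0.12, adjusted p = 0.0026). SMARCA2 had been lower at 10 h, was at 20.2 CPM at 24 h and 26.0 CPM at 48 h, and stood higher, though still below DMSO, by the last time point. SMARCA4 was lower in each later sample.

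**Figure D3:**
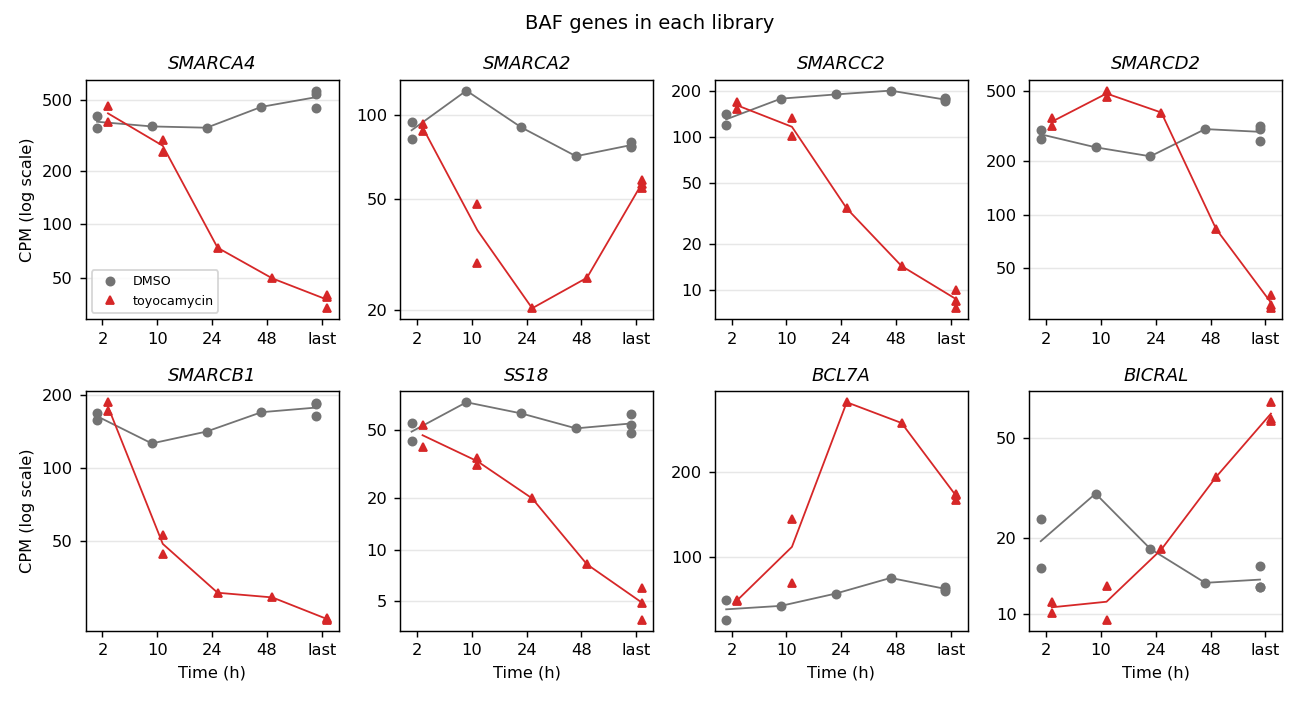
CPM (log axis) of 8 BAF genes in each of the 17 libraries by time in h, with DMSO as grey circles and toyocamycin as red triangles and lines through the group means. SMARCA4 and SMARCC2 were lower at each later time on toyocamycin, SMARCD2 was above DMSO at 10 h and at 29.6 to 35.3 CPM at the last time point, and BICRAL ended above every DMSO library.

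Counts of SMARCA2 relative to SMARCA4, a ratio within each library that no scaling changes, were -2.72 ± 0.205 on the log2 scale in DMSO at the last time point and 0.589 ± 0.178 on toyocamycin (SD, n = 3 each), a difference of 3.31. Per kb of transcript, SMARCA2 made up 11.8, 12.1 and 14.8% of the sum of both motors in DMSO and 62.7, 57.5 and 57.7% on toyocamycin. Earlier the difference in log2 ratio was -0.115 after 2 h, -1.34 after 10 h, 0.0743 after 24 h and 1.74 after 48 h. An exact permutation test over all 17 libraries, two-sided and with labels exchanged within each time point, gave a mean difference of 0.733 and p = 0.188 over 1440 arrangements. Without the libraries of 10 h the mean was 1.25 and the exact permutation p = 0.0292. At the last time point alone the exact permutation p was 0.1, the smallest that 3 against 3 libraries can give.

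**Figure D4:**
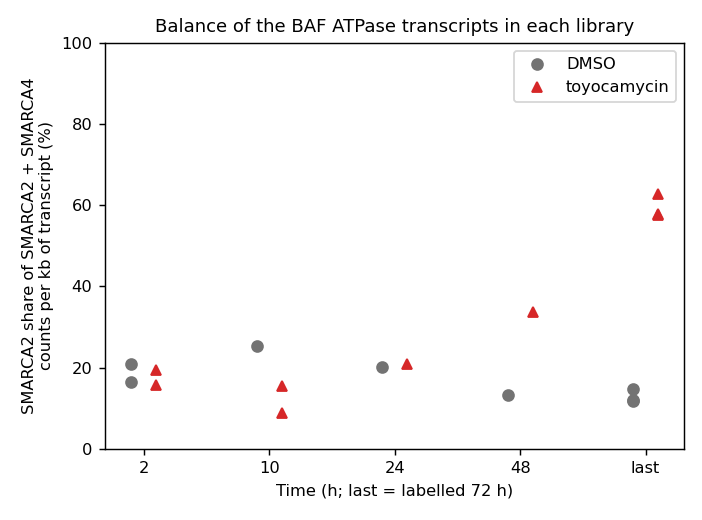
Share of SMARCA2 in the sum of SMARCA2 and SMARCA4 counts per kb of transcript (%, vertical axis from 0 to 100) in each library by time in h, DMSO as grey circles and toyocamycin as red triangles. Toyocamycin libraries were at 57.5 to 62.7% at the last time point and DMSO libraries at 11.8 to 14.8%.

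Core scaffolds fell with SMARCA4. SMARCC2 (BAF170) was 177, 180 and 172 CPM in DMSO and 7.57, 10.0 and 8.43 CPM on toyocamycin (-4.31 ± 0.15, adjusted p = 1.65e-12), and its paralog SMARCC1 (BAF155) was 288, 285 and 300 CPM against 73.4, 59.6 and 71.7 CPM (-2.06 ± 0.13, adjusted p = 8.98e-10). The log2 ratio of SMARCC2 to SMARCC1 thus moved from -0.725 ± 0.0729 to -2.97 ± 0.363 (SD, n = 3). SMARCB1, the core subunit lost in rhabdoid tumours, was 183, 185 and 164 CPM against 23.6, 24.0 and 23.7 CPM (-2.87 ± 0.12, adjusted p = 1.02e-11).

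Alternative core subunits parted. SMARCD2 was 316, 303 and 263 CPM in DMSO and 35.3, 29.6 and 30.9 CPM on toyocamycin (-3.17 ± 0.14), and SMARCD1 was 77.9, 75.1 and 75.8 CPM against 25.7, 29.7 and 32.0 CPM (-1.36 ± 0.12), while SMARCD3 was 81.0, 72.0 and 58.8 CPM against 87.4, 103 and 103 CPM (0.50 ± 0.15, adjusted p = 0.00571). The adjusted p of the SMARCD1 change was 4.59e-08 and that of the SMARCD2 change 1.08e-11. In SMARCD3, 28.4% of the exon bases lie under genes on the other strand, mostly CHPF2 (26.9%). With mitochondrial scaling its log2 value was -0.617. SS18, the subunit fused in synovial sarcoma, was 47.8, 53.6 and 62.4 CPM against 6.0, 3.89 and 4.87 CPM (-3.44 ± 0.20, adjusted p = 2.54e-10), and its paralog SS18L1 fell by 1.51 (SE 0.17). Their log2 ratio, SS18L1 over SS18, went from -1.14 to 0.792.

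BCL7A rose from 77.2, 78.3 and 75.8 CPM to 159, 168 and 166 CPM (1.12 ± 0.12, adjusted p = 1.92e-07), while BCL7B (-0.88 ± 0.13) and BCL7C (-0.76 ± 0.19) fell. ACTL6A, an actin-related subunit, fell by 0.93 (SE 0.16). Its neuronal paralog ACTL6B had at most 1.11 CPM in any library and was tested only at 10 h, where it was not called. SMARCE1, an HMG-box subunit, was 3.57, 4.04 and 4.12 CPM in DMSO and 21.4, 16.8 and 17.5 CPM on toyocamycin (2.27 ± 0.20, adjusted p = 3.28e-08), on the uncertain counts described above.

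The subunits that define each BAF form went in different directions. In canonical BAF, ARID1A was 55.0, 62.2 and 53.9 CPM in DMSO and 79.6, 106 and 122 CPM on toyocamycin (0.88 ± 0.17, adjusted p = 0.000168), and its paralog ARID1B was 110, 107 and 97.6 CPM against 62.2, 82.6 and 86.0 CPM (-0.41 ± 0.16, adjusted p = 0.0262). The log2 ratio of ARID1B to ARID1A went from 0.881 ± 0.11 to -0.408 ± 0.0851 (SD, n = 3). DPF2 was 183, 198 and 188 CPM against 203, 194 and 216 CPM and was not called (0.14 ± 0.12). DPF1, mainly a neuronal gene, had 11 counts over the 3 toyocamycin libraries and 349 over the DMSO libraries, a ratio per total count of 0.0425 (95% exact interval 0.021 to 0.077, for counting error only), and the fall passed the test (adjusted p = 1.62e-07). DPF3 stayed under 4 CPM, at 1.44, 1.02 and 0.987 CPM against 3.54, 3.8 and 3.22 CPM (1.65 ± 0.39, adjusted p = 0.00106).

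Of the PBAF subunits, ARID2 was 27.8, 31.5 and 34.8 CPM in DMSO and 6.09, 5.93 and 7.39 CPM on toyocamycin (-2.24 ± 0.18, adjusted p = 7.53e-09), and BRD7 was 108, 109 and 126 CPM against 20.3, 18.0 and 20.9 CPM (-2.50 ± 0.14, adjusted p = 1.68e-10). PBRM1, the polybromo subunit often lost in kidney cancer, was 55.6, 56.2 and 68.2 CPM against 18.6, 13.9 and 17.6 CPM (-1.82 ± 0.16, adjusted p = 2.17e-08). PHF10 was 50.7, 46.1 and 50.8 CPM against 71.5, 68.1 and 57.0 CPM (0.45 ± 0.13, adjusted p = 0.00437). In BRD7, 41.9% of the exon bases lie under a gene on the other strand, ADCY7.

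In non-canonical BAF, both BICRA paralogs rose and BRD9 fell. BICRAL was 12.8, 12.9 and 15.5 CPM in DMSO and 69.6, 58.8 and 59.7 CPM on toyocamycin (2.22 ± 0.17, adjusted p = 8.02e-09), and BICRA was 21.8, 19.4 and 14.7 CPM against 51.3, 90.6 and 87.6 CPM (2.07 ± 0.24, adjusted p = 8.46e-07). BRD9, their bromodomain partner, was 49.7, 46.6 and 46.5 CPM against 23.9, 25.8 and 23.0 CPM (-0.94 ± 0.13, adjusted p = 4.24e-06).

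Of the ISWI and INO80 motors, SMARCA5 was 103, 100 and 127 CPM in DMSO and 44.7, 39.9 and 43.1 CPM on toyocamycin (-1.34 ± 0.15, adjusted p = 4.35e-07). SMARCA1 had 1, 1 and 3 counts in DMSO and 13, 5 and 14 counts on toyocamycin. The ratio per total count was 8.63 (95% exact interval 3.34 to 28.4, adjusted p = 0.000177 in edgeR's test). In that fit the gene passed the count filter only through toyocamycin libraries of the last time point, which favours a rise there. Neither the interval nor the p is thus independent support, though SMARCA1 is counted among the 12 rises. INO80 was 49.8, 52.6 and 55.8 CPM against 56.1, 61.0 and 65.3 CPM (0.24 ± 0.12, adjusted p = 0.0808).

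CHD genes split at the last time point. CHD2, a relative of CHD1 that is mutated in epileptic encephalopathy, was 41.3, 47.4 and 54.8 CPM in DMSO and 705, 641 and 672 CPM on toyocamycin, 14.4 times the DMSO level (3.84 ± 0.14, adjusted p = 2.18e-12). CHD1 was 48.7, 40.6 and 52.3 CPM against 34.9, 29.2 and 34.8 CPM (-0.49 ± 0.16, adjusted p = 0.0112), so the log2 ratio of CHD2 to CHD1 went from 0.0184 ± 0.235 to 4.35 ± 0.093 (SD, n = 3). CHD3 was 42.8, 40.5 and 35.1 CPM against 91.0, 104 and 114 CPM (1.42 ± 0.14, adjusted p = 8.47e-08), and CHD4, its NuRD paralog, was 16.2, 15.0 and 15.0 CPM against 1.28, 1.02 and 2.61 CPM (-3.18 ± 0.26, adjusted p = 1.21e-08), on the uncertain counts described above. CHD7 fell by 0.83 (SE 0.12, adjusted p = 1.37e-05), and CHD6 (-0.20 ± 0.13), CHD8 (0.05 ± 0.11) and CHD9 (0.31 ± 0.19) were not called.

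**Figure D5:**
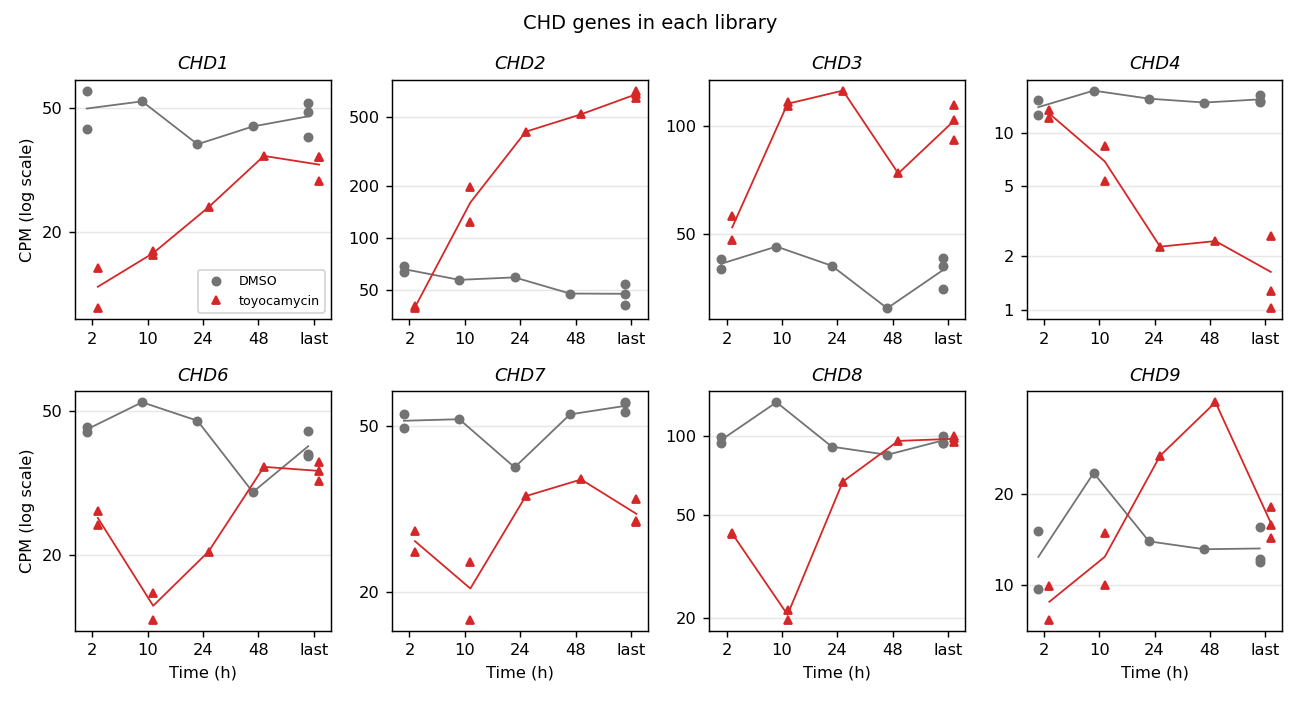
CPM (log axis) of the 8 CHD genes in each of the 17 libraries by time in h, with DMSO as grey circles and toyocamycin as red triangles and lines through the group means. CHD1 was lowest on toyocamycin at 2 h, CHD8 was at 19.7 and 21.6 CPM at 10 h and back at 94.9 to 100 CPM at the last time point, and CHD2 rose from 40.6 and 39.5 CPM to 641 to 705 CPM.

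Whether the late effect differed from the early one was tested as a difference of effects. This difference was higher for 15 genes and lower for 19, where all genes tested gave 38.0% and 38.1%. Of the 10 early fallers, 8 had a later effect above the earlier one. Having been chosen as low at 2 h favours this direction, and of all 1220 genes lower at 2 h 72.5% had it and 13.9% the opposite. CHD2 changed by 4.57 ± 0.21 (adjusted p = 1.18e-10), BICRAL by 3.09 ± 0.27 (7.45e-08), ARID1A by 1.76 ± 0.27 (2.64e-05) and CHD1 by 1.42 ± 0.26 (0.000147). CHD8, at 94.5, 94.6 and 100 CPM in DMSO and 94.9, 98.6 and 100 CPM on toyocamycin at the last time point, had a difference of 1.25 ± 0.17 (adjusted p = 1.03e-05). ARID2 went further down (-1.42 ± 0.26, adjusted p = 0.000145), and CHD7 showed no such difference that passed the test (0.13 ± 0.19). In DMSO alone, between 2 h and the last time point, 4 genes rose and 5 fell, where 10.2 and 11.4% of all genes did. The rises were those of SMARCA4 (0.46 ± 0.16, adjusted p = 0.0621), SMARCC2, DPF2 and SS18L1, and the falls those of CHD2 (-0.47 ± 0.14, adjusted p = 0.0347), SMARCD1, SMARCE1, BCL7C and BICRAL. Of the 2 h DMSO libraries 1 was of batch 2, while those of the last time point were all of batch 1. With batch as a term 0 rises and 3 falls were called (CHD2, SMARCD1 and BCL7C), and with library size alone in place of TMM 0 rises.

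Calls at the last time point depended partly on how libraries were scaled. Under every alternative that kept the gene, 19 of the 22 falls and 5 of the 12 rises held: the rises were those of CHD2, BICRAL, BICRA, SMARCE1 and SMARCA1. A minimum of 10 counts in every library dropped SMARCA1, whose call the count filter favoured, as described above. Falls of SMARCA2, ARID1B and CHD1, and rises of CHD3, BCL7A, ARID1A, DPF3, SMARCD3, PHF10 and INO80, were lost under at least 1 scaling, and with mitochondrial scaling 5 genes rose. The median of all genes was 0.177 in the main scaling, 0.499 with DESeq2 size factors, -0.424 with library size alone and -0.892 with mitochondrial scaling.

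Beside these genes, 60 further remodeler genes were examined. At 2 h 8 of 58 tested fell and 0 rose, where 8.42 and 0.518% of all genes did. The falls were those of RAD54L2 (-0.87), INO80D (-0.83), BAZ2B (-0.80), BTAF1 (-0.73), ERCC6 (-0.71), GATAD2B (-0.71), RSF1 (-0.57) and BPTF (-0.52). The median of all 58 was 0.0415. For the rises, 0 genes had an unadjusted p under 0.05. At the last time point 37 fell and 19 rose, where 41.9 and 47.0% of all genes did, with a median of -0.943 against 0.177 for all genes. HDAC1, a NuRD deacetylase, was at 423 and 360 CPM on toyocamycin at 10 h and at 13.5, 16.5 and 15.4 CPM at the last time point (-3.56 ± 0.15), where DMSO was at 167, 182 and 198 CPM. RAD54L, a recombination translocase, fell by 4.66 (SE 0.21). CHD5, a neural CHD gene, rose from 0.941, 1.30 and 2.19 CPM to 59.9, 65.7 and 67.8 CPM (5.46 ± 0.23, adjusted p = 8.6e-12), and MTA2, a NuRD subunit, rose by 1.58 (SE 0.13).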

How the data were processed

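RNA-seq of poly(A) RNA from YB5 cells was analysed. Per the labels the reads were aligned to GRCh38 with STAR 2.7.5a, and the authors deposited raw counts per gene for 19141 genes. The strand setting of the counting is not given in the sources used here. A second deposited table, of the study's own fold changes and p-values, was not used, and 1 count column that matches no labelled sample was not used. Groups, replicates and batches came from the labels, and gene positions and transcript lengths from GENCODE release 44.

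Genes were filtered with filterByExpr, libraries scaled with TMM, and contrasts tested with edgeR 4.0.16 (quasi-likelihood F test, form of edgeR 3) in R 4.3.3 with limma 3.58.1, with Benjamini-Hochberg adjustment over all genes. A fit of 14 libraries (14491 genes) served 2, 24, 48 h and the last time point, and one of 17 libraries (16521 genes) served 10 h. Standard errors are the log2 fold change divided by the square root of F. Replicates are described as biological. The p-values rest on a spread estimated over all groups of a fit. At 10 h, with 1 DMSO library, that spread comes mostly from other groups. The reported fit at 2 h has no batch term, so differences between batches are part of its spread. At 2 h the number marks the batch in the labels (r = 0.307 between same-numbered libraries), so it paired the samples there. Scripts were tested on simulated data. The result of 1 marker is not reported here. All 39 genes are named, and of the 60 further remodelers the 2 largest rises and 2 largest falls called with arms apart and a mean log2 CPM no lower than 4, and those called at 2 h. Members, lists and rules were chosen with earlier results of these data known. Alternatives covered scaling, filters, DESeq2 1.42.0, thresholds, batch, block and leaving out libraries. Those of the DMSO time contrast were chosen after seeing the data.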

Additional observations from a re-analysis of the deposited data

Results flagged for a closer look

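Of the genes called at 2 h, 9 had a different effect at the last time point by the test of that difference in edgeR's quasi-likelihood fit. Having been chosen as low at 2 h favours a later effect above the earlier one. Of all 1220 genes lower at 2 h, 72.5% had a later effect above the earlier one and 13.9% one below it. On the log2 scale the later effect was above the earlier one by 4.57 for CHD2, 3.09 for BICRAL, 1.76 for ARID1A, 1.42 for CHD1, 1.25 for CHD8, 0.79 for DPF2, 0.74 for INO80 and 0.62 for CHD6. It was below the earlier one by -1.42 for ARID2. The differences of DPF2, INO80 and CHD6 turned below 0 with mitochondrial scaling.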

How the results depend on the processing

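The calls at 2 h, 10 h and the last time point were recomputed under up to 18 alternatives for each. The count of rises at 2 h was 0 in the fit reported and 1 with DESeq2 size factors, with a minimum of 10 counts in every library and with DESeq2's Wald test. With the replicate as a block, in a fit of the 2 h libraries alone, it was 5, where the 2 h numbers pair the samples by batch. Falls at 2 h numbered 10, but 1 with mitochondrial scaling, 2 with a minimum fold change of 1.5, and 6 to 10 with 1 library left out (6 without replicate 2 of toyocamycin). At the last time point the same-numbered libraries did not deviate together (r = -0.105, 0.0427 and -0.0876), and the block left the counts at 12 and 22 while adding CHD9.

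Rises at 10 h went from 8 to 0 with mitochondrial scaling and to 5 at an adjusted p under 0.05. At 24 h, 2 rises and 26 falls passed 2-fold with library size alone, and 0 and 31 with mitochondrial scaling. At 48 h mitochondrial scaling gave 3 and 29. It gave 5 rises at the last time point, and 4 genes with a later effect above the earlier one. The rises of the DMSO time contrast went to 0 with library size alone, with mitochondrial scaling and with batch as a term, its falls to 0 with mitochondrial scaling and to 3 with batch. Leaving out 1 library gave 0 to 5 rises and 2 to 5 falls there, with 0 rises without replicate 2 of DMSO at 2 h or at the last time point. The mean SMARCA2 to SMARCA4 difference of 0.733 became 1.25 without the libraries of 10 h and passed the threshold.

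The turns listed next are of genes called in the reported fit or in the alternative. At 24 and 48 h they are of genes past 2-fold in the reported fit. With library size alone these log2 values at the last time point turned below 0: SMARCD3 -0.0974, DPF2 -0.458, PHF10 -0.157, INO80 -0.365, CHD8 -0.548, and the later minus earlier effect of CHD7 -0.414. With mitochondrial scaling log2 values turned at 24 h for SMARCE1 (-0.803), BCL7A (-0.00895), BCL7C (-0.867), ARID1A (-0.926), BICRA (-0.394) and CHD3 (-0.634), and at 48 h for BICRA (-0.0545), BICRAL (-0.422), CHD3 (-0.571) and CHD9 (-0.220). At 10 h SMARCD2 (-0.147), SMARCE1 (-0.422) and BCL7A (-0.365) turned, and at the last time point SMARCD3 (-0.617), ARID1A (-0.205), DPF2 (-0.928), PHF10 (-0.638), INO80 (-0.830) and CHD8 (-1.02). Values outside that rule turned with this scaling too, such as SMARCD2 (-1.44), SMARCD3 (-1.31), BCL7B (-1.51) and CHD9 (-1.33) at 24 h. So did CHD9 (-0.725) at the last time point. The later minus earlier effect turned for DPF2 (-0.0722), INO80 (-0.227), CHD6 (-0.315) and CHD9 (-0.201). In DMSO over time SMARCD1 (0.214), SMARCE1 (0.0572), BICRAL (0.297) and CHD2 (0.152) turned above 0. Without replicate 1 of DMSO at 2 h, DPF3 in DMSO over time became 1.46, the highest of a range from -0.659, and without replicate 1 of toyocamycin at 10 h BCL7B became -0.505, the lowest of a range to 0.798. Single libraries decided some calls. At 2 h the adjusted p passed 0.1 for DPF2 (0.121) without replicate 1 of DMSO, for ARID2 (0.132), BICRAL (0.230) and INO80 (0.267) without its replicate 2, for BICRAL (0.131) and INO80 (0.165) without replicate 1 of toyocamycin, and for ARID1A (0.186), DPF2 (0.117), ARID2 (0.136) and INO80 (0.236) without its replicate 2. At 10 h BCL7A (0.278) and DPF1 (0.277) were lost without replicate 1 of toyocamycin, and SMARCC2 (0.129) and SMARCE1 (0.114) without replicate 2. At the last time point ARID1B (0.137) was lost without replicate 1 of toyocamycin, and INO80 (0.140 to 0.225) without replicate 1 or 2 of DMSO or replicate 2 or 3 of toyocamycin. These p are from edgeR's quasi-likelihood test. The cause of these differences between scalings was not tested. Low counts limit SMARCA1, DPF1 and DPF3, the 10 h comparison rests on 1 DMSO library, and intervals cover counting error only.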
